A study of Homo sapiens with 8 samples.

Results

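Aquaporins are small membrane channels, and 9 of their genes were followed here: AQP1, AQP3, AQP4, AQP5, AQP7, AQP8, AQP9, AQP10 and AQP11. They are a chosen part of the family, picked with earlier results of these arrays known, and AQP2, AQP6 and MIP are not among them. Each gene was read by the probe set (a group of array probes for 1 transcript) that carried its symbol alone and had the highest mean signal over all 8 arrays. In this way 8 of the 9 members were read, among 19775 genes on the array. AQP7 was left unread, because its probe set is annotated to AQP7 and AQP7B together. The probe sets were chosen by their mean log2 signal, and the family was selected on the AQP3 change under androgen in these same arrays, so the values of AQP3 are given below as a description, with no test. The other 7 members read were tested.

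The cells were MDA-MB-453, an established human breast cancer line that grows in culture and responds to androgen. All groups were first held for 3 days in medium without phenol red that contained 5% serum stripped with charcoal and dextran, which lowers its steroid content. One group was then given vehicle. The others were given DHT (dihydrotestosterone, a potent natural androgen) at 10 nM and were collected at 4 h, 16 h or 48 h. Each sample's total RNA went onto 1 array, and signals are on the log2 scale. Each of the 4 groups had n = 2 samples labelled as biological replicates. The labels give no harvest time for vehicle, so the effect of DHT and that of time in culture cannot be told apart. All measurements come from 1 cell line. It was not stated how the replicates were separated, so p-values measure the spread between these samples.

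An aquaporin monomer forms its own pore, and monomers assemble into tetramers in the membrane. The orthodox members conduct mainly water, whereas the aquaglyceroporins AQP3, AQP7, AQP9 and AQP10 also conduct glycerol, and some members, AQP3 and AQP8 among them, let hydrogen peroxide through. In the body AQP3 is known from the basolateral membranes of the kidney collecting duct and from the epidermis, and AQP5 from the apical membranes of secretory glands.

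The genes lie apart in the genome, except for AQP3 and AQP7. In GRCh38.p14 RefSeq places AQP3 at chr9:33441160-33447593 and AQP7 at chr9:33383191-33402568. AQP3 lies on the minus strand. RefSeq promoter windows, from 250 bases before to 50 bases after a start site, were listed for 8 of the 9 members. The windows of AQP3, the member that moved, and of AQP5, a glandular member that was not called, are shown because both were rich in G and C (75.3% and 84.0% of bases, against a median of 58.7% over 35116 windows). The AQP3 window is chr9:33447544-33447843, minus strand, and that of AQP5 is chr12:49961622-49961921, plus strand. Capitals mark matches, on either strand and with overlaps joined, to the GC box GGGCGG, the TATA box TATAAA and the half-site AGAACA of the androgen receptor.
AQP3: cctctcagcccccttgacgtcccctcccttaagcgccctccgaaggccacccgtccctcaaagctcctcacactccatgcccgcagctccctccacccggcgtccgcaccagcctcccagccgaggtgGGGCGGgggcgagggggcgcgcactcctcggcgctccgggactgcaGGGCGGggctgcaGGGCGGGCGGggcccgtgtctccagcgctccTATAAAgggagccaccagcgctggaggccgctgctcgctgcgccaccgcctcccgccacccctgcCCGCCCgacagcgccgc
AQP5: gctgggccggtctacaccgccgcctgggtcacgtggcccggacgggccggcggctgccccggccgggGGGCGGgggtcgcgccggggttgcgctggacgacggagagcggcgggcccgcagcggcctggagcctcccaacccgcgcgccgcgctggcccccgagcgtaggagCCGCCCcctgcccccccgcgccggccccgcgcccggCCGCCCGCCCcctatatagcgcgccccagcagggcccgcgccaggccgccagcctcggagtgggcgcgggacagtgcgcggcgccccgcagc
The AQP3 window held 5 GC boxes, and a TATA box that began 32 bases before the start site. In the AQP5 window 4 GC boxes and 0 of these TATA boxes were found. The pattern was not limited to AQP3: the window of AQP1, which was not called, held 3 GC boxes and a TATA box 30 bases before its start, and 1 of 3 AQP4 windows held a TATA box. GC boxes stood in 45% of all windows and TATA boxes in 11.5%. The half-site AGAACA was found in 14.8% of all windows and in 0 of the 11 windows of the members. The full palindrome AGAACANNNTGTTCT was found in 0.00285% of all windows and in 0 of these 11. These counts cover the printed stretch only, and sites farther away were not searched.

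AQP3 signal was higher at each later time of the course. Its brightest probe set, 39248_at, read 8.43 and 8.38 log2 units with vehicle, 10.43 and 10.55 after 4 h of DHT, 14.04 and 14.14 after 16 h, and 14.76 and 14.99 after 48 h. The 4 groups did not overlap, and the arrays of a group lay close together compared with the steps between groups. Relative to vehicle the log2 change (± SE) was 2.09 ± 0.10 at 4 h. It was 5.69 ± 0.10 at 16 h and 6.47 ± 0.10 at 48 h. These were changes of 4.25-fold, 51.6-fold and 88.9-fold. Each SE here and below is from limma, which pools the spread of the 4 groups of n = 2 and draws it toward that of all genes. The step from 4 h to 16 h was 12.1-fold (3.60 log2 units) and the step from 16 h to 48 h was 1.72-fold (0.78 log2 units). On the log2 scale, 32.3% of the rise seen at 48 h was present at 4 h and 87.9% at 16 h by this probe set. The shares were 10.3% and 77.5% by 39249_at, and 13.7% and 73.6% by 203747_at. By 39248_at, AQP3 had the largest rise of all 19775 genes at each of the 3 times. The next gene was CLDN8, a tight junction claudin, at 4 h (1.79), and CYP4F8, a fatty acid hydroxylase, at 16 h (3.75) and 48 h (5.21). Between 16 h and 48 h AQP3 stood at rank 40 among rises.

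**Figure D1:**
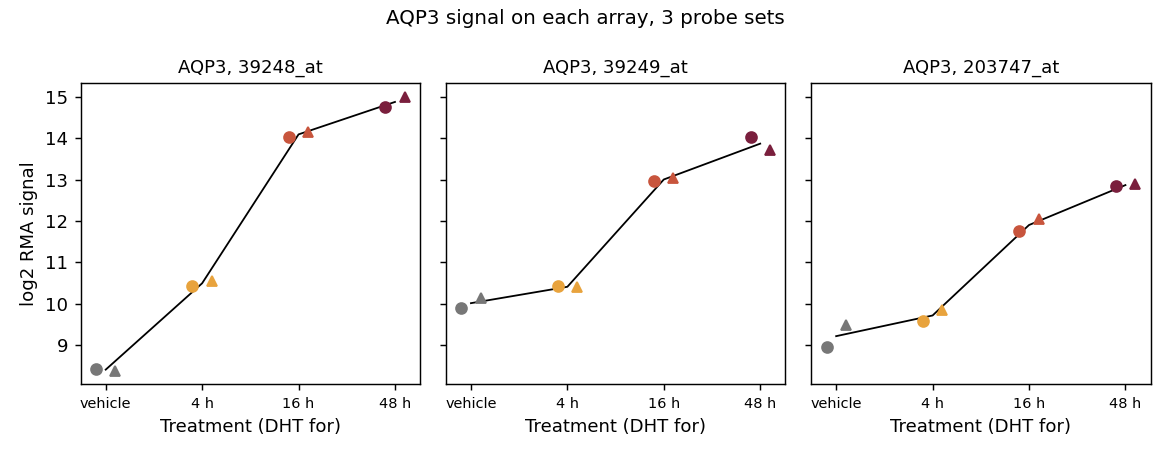
Log2 RMA signal of the 3 AQP3 probe sets (y axis) in vehicle and after 4, 16 and 48 h of DHT (x axis); circles are replicate 1, triangles replicate 2, and lines join group means. All 3 probe sets are highest at 48 h, and the step from vehicle to 4 h is 2.09 log2 units in 39248_at against 0.40 in 39249_at and 0.50 in 203747_at.

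The 3 AQP3 probe sets shared the direction but not the size of the change. Their mean signals were 11.97 for 39248_at, 11.82 for 39249_at and 10.92 for 203747_at, so the choice of the first over the second by mean signal was narrow. 39249_at read 9.89 and 10.13 with vehicle, 10.42 and 10.40 at 4 h, 12.96 and 13.04 at 16 h, and 14.03 and 13.71 at 48 h. Here too the groups did not overlap, yet the change at 4 h was only 0.40 ± 0.13. It reached 2.99 at 16 h and 3.86 at 48 h (14.5-fold). 203747_at read 8.96 and 9.47 with vehicle, 9.57 and 9.85 at 4 h, 11.75 and 12.05 at 16 h, and 12.85 and 12.89 at 48 h. Its changes were 0.50 ± 0.18, 2.69 and 3.65 (12.6-fold at 48 h). At 4 h its vehicle and DHT values did not overlap, but the nearest of them lay closer together than the vehicle pair. The fold at 48 h therefore ran from 12.6 to 88.9 with the probe set read. The step from 16 h to 48 h was closer in size between the probe sets, at 0.78, 0.87 and 0.97 log2 units, but their changes from vehicle stayed apart. Over the 8 arrays 39249_at and 203747_at each correlated with the first at r = 0.974. Among rises of 41091 probe sets, 39249_at stood at rank 299 and 203747_at at rank 120 at 4 h, and at ranks 5 and 8 at both 16 h and 48 h.

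The other 7 aquaporins that were read did not pass the test at any time. Limma with Benjamini-Hochberg adjustment over all 19775 genes called 0 of 7 at 4 h, where it called 0.177% of all genes (adjusted p below 0.05). It called 0 of 7 at 16 h against 6.85% of all genes, and 0 of 7 at 48 h against 9.51%. Between DHT times it called 0 of 7 from 4 h to 16 h (3.05% of all genes) and 0 of 7 from 16 h to 48 h (0.829%). At an unadjusted p below 0.05 there were 0, 0, 1, 0 and 0 of 7 in these comparisons, the 1 being AQP4 at 48 h. The median log2 change over the 7 was 0.03 at 4 h, 0.05 at 16 h and 0.03 at 48 h, beside 0.00, 0.02 and 0.01 over all genes. The 95% intervals of all 7 against vehicle lay between -0.35 and 0.32 at 4 h, between -0.37 and 0.40 at 16 h and between -0.52 and 0.31 at 48 h. A change as large as 1.43-fold thus lay inside the interval for the least certain of them.

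**Figure D2:**
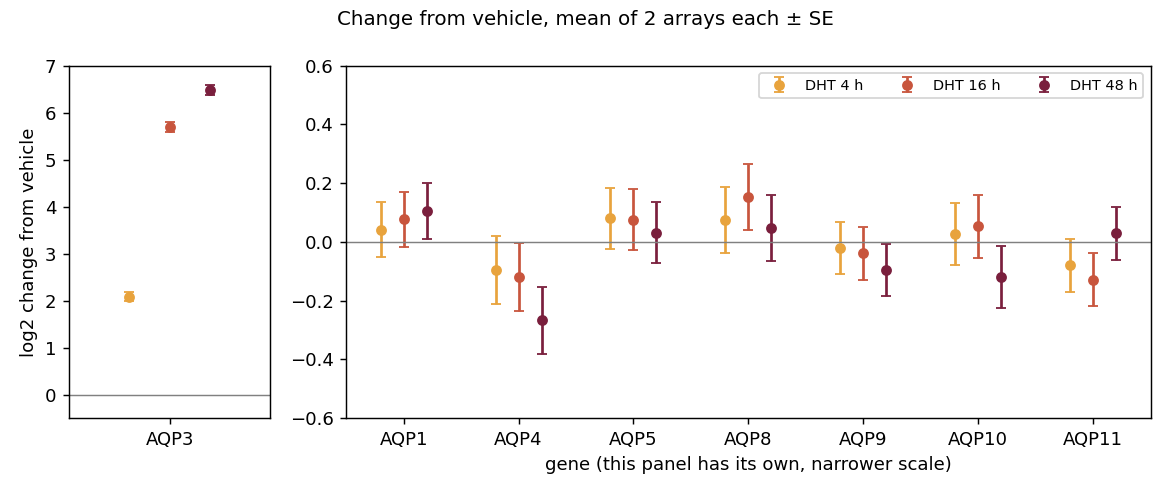
Log2 change from vehicle (y axis) of AQP3 (left, own scale) and of the 7 other members read (right, narrower scale) after 4, 16 and 48 h of DHT; points are differences of means of 2 arrays and bars are SE from limma. AQP3 reaches 6.47 at 48 h, and the other members lie between -0.27 and 0.15.

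Among the glycerol-conducting members, AQP9, known from liver, read 8.11 and 8.14 with vehicle, 8.06 and 8.15 at 4 h, 8.13 and 8.04 at 16 h, and 8.03 and 8.02 at 48 h. The 48 h values lay just under the others, a change of -0.10 ± 0.09 (limma adjusted p = 0.587). AQP10, known from the small intestine, read 7.31 and 7.05 with vehicle, 7.25 and 7.16 at 4 h, 7.20 and 7.27 at 16 h, and 7.03 and 7.10 at 48 h. The vehicle arrays alone spanned almost its whole range, and the change at 48 h was -0.12 ± 0.11 (limma adjusted p = 0.567). The probe set that AQP7 shares with AQP7B read from 8.80 to 9.26 over the 8 arrays, with mean differences from vehicle of 0.31, 0.13 and 0.23 at 4, 16 and 48 h. It names neither gene and was not tested.

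Among the water channels, AQP1, known from red cells and capillary endothelium, read 7.73 and 7.73 with vehicle, 7.80 and 7.76 at 4 h, 7.72 and 7.90 at 16 h, and 7.86 and 7.82 at 48 h. The 48 h values lay above vehicle by 0.11 ± 0.09, without a call (limma adjusted p = 0.571). AQP4, the water channel of astrocyte end feet, had the most negative change of the family. It read 6.25 and 6.56 with vehicle, 6.33 and 6.28 at 4 h, 6.29 and 6.27 at 16 h, and 6.04 and 6.23 at 48 h. The vehicle arrays differed from each other by more than the lower of them differed from any DHT array. Its change at 48 h was -0.27 ± 0.12 (95% interval -0.52 to -0.01, limma adjusted p = 0.202). AQP4 had 4 further probe sets, with changes at 48 h of 0.19, 0.06, -0.09 and 0.06, none of them called, so its probe sets did not share a direction. At 4 h and 16 h the sign also turned with the vehicle array left out: without vehicle replicate 2 the changes were 0.06 and 0.03.

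AQP5 read 7.93 and 7.72 with vehicle, 7.95 and 7.86 at 4 h, 7.84 and 7.97 at 16 h, and 7.90 and 7.82 at 48 h. The DHT values fell inside the range of the vehicle pair or just above it, and the change at 48 h was 0.03 ± 0.10 (limma adjusted p = 0.901). AQP8, which passes water and hydrogen peroxide, read 6.98 and 7.29 with vehicle, 7.19 and 7.23 at 4 h, 7.22 and 7.35 at 16 h, and 7.21 and 7.16 at 48 h. Its largest change was 0.15 ± 0.11 at 16 h (limma adjusted p = 0.518), smaller than the gap between the vehicle arrays. AQP11, a member of the endoplasmic reticulum, read 8.56 and 8.49 with vehicle, 8.47 and 8.42 at 4 h, 8.34 and 8.44 at 16 h, and 8.54 and 8.57 at 48 h. It dipped to -0.13 ± 0.09 at 16 h (limma adjusted p = 0.487) and stood at 0.03 at 48 h. From 16 h to 48 h it differed by 0.16 ± 0.09, also without a call (limma adjusted p = 0.600).

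**Figure D3:**
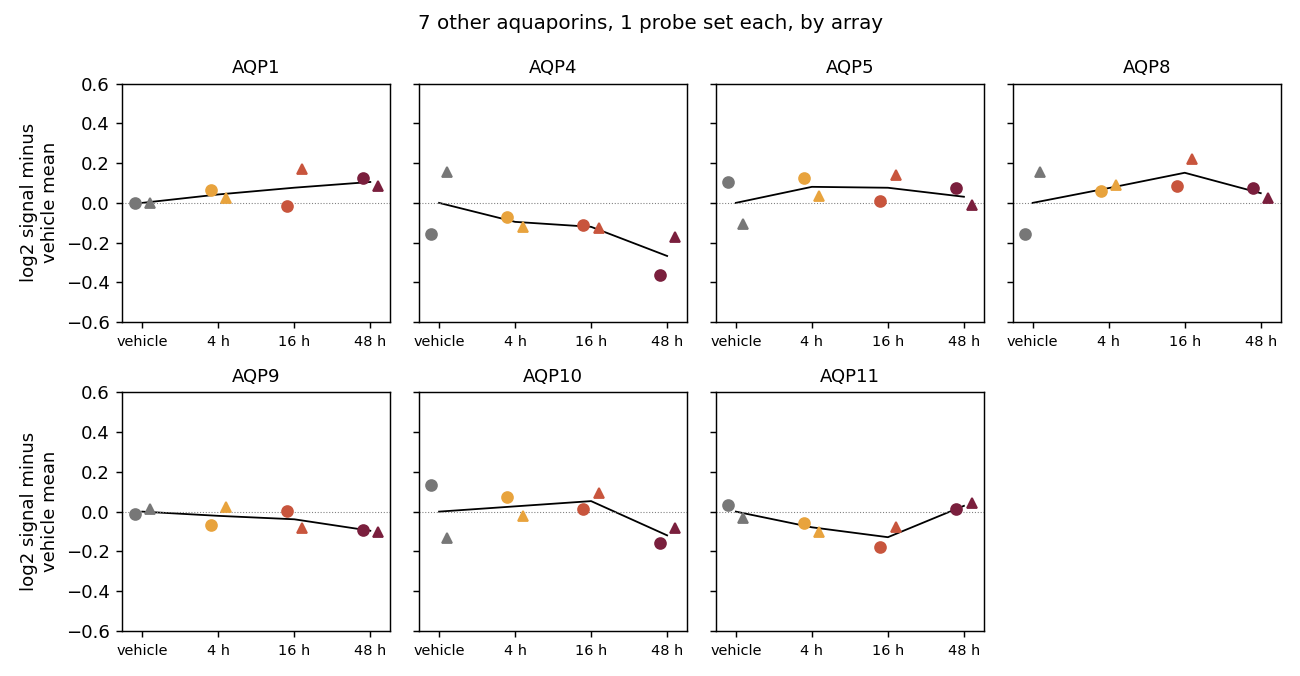
Log2 signal minus the vehicle mean (y axis) of the 7 other aquaporins read, on each array, in vehicle and after 4, 16 and 48 h of DHT (x axis); circles are replicate 1, triangles replicate 2, and lines join group means. All values lie within 0.6 log2 units of the vehicle mean, and replicates of a group are often as far apart as the group means.

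The 7 members without a call had low to middling signals. A probe set's brightness depends on its probes as well as on the RNA, so it serves here only as a guide to how near the array's background a value lies. AQP4 was brighter than 13.9% of the 19775 genes, AQP10 than 25.6%, AQP8 than 26.1%, AQP1 than 36.9%, AQP5 than 38.6%, AQP9 than 42.9% and AQP11 than 50.7%. With vehicle, AQP3 was brighter than 49.3% of genes by 39248_at, 77.6% by 39249_at and 64.6% by 203747_at, and at 48 h than 99.8%, 99.3% and 98.1%. The probe set with the highest mean was thus the dimmest of the 3 with vehicle. The table holds no detection calls, so whether the dim members were transcribed was not tested, and a low signal shortens folds. The 5 remaining probe sets of AQP1 and AQP4 lay dimmer still, with changes from vehicle between -0.21 and 0.22 and 0 of 15 called by limma over all probe sets (0 at an unadjusted p below 0.05).

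Of the 3 genes that RefSeq lists on each side of AQP3, AQP7 among them, NOL6 alone was read. NOL6, at chr9:33461353-33473924, encodes a nucleolar protein of ribosome assembly. NOL6 read 9.54 and 9.78 with vehicle, 10.13 and 10.15 at 4 h, 10.26 and 10.20 at 16 h, and 10.15 and 10.10 at 48 h. It was higher in all 6 DHT arrays, by 0.48 ± 0.10 at 4 h (limma adjusted p = 0.127), 0.57 at 16 h (adjusted p = 0.0057) and 0.47 at 48 h (adjusted p = 0.013). From 4 h to 16 h it differed by 0.09 (limma adjusted p = 0.794). Both calls were lost without vehicle replicate 1 and when NOL6 was read by its plain _at probe set (adjusted p = 0.628 and 0.480, the highest of all settings tried), and the call at 48 h also without either 48 h array.

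The genes whose signal followed AQP3 most closely over the 8 arrays were taken from 291 genes whose group means spanned at least 1 log2 unit. These correlations rest on arrays that fall into 4 groups, and they are a description. AQP3 was read here by 39248_at alone. The other AQP3 probe sets each correlated with it at r = 0.974, lower than any of the 8 genes named next. The ranking thus describes 39248_at, and it was not repeated with the other probe sets. The 8 most alike were WWC3 (r = 0.998), CHPT1, a phospholipid synthesis enzyme (0.994), UGT2B28, which conjugates androgens (0.991), FKBP5, a co-chaperone of steroid receptors (0.990), AK4, a mitochondrial adenylate kinase (0.988), C1orf116 (0.985), CLDN8 (0.984) and DOP1B (0.984). At 48 h UGT2B28 stood at 4.44, CLDN8 at 3.83, FKBP5 at 3.34, C1orf116 at 3.06, CHPT1 at 2.07, WWC3 at 1.25 and AK4 at 1.05 log2 units above vehicle. DOP1B stood at 0.84 at 16 h. Their order against AQP3 depended on its probe set. All 8 lay below the 6.47 of 39248_at, whereas UGT2B28 lay above the 3.86 of 39249_at and the 3.65 of 203747_at, and CLDN8 above the latter. At 4 h CLDN8 stood at 1.79, below the 2.09 of 39248_at and above the 0.40 and 0.50 of the other AQP3 probe sets. The 3 most unlike were NTN4, a secreted netrin (r = -0.994), SHISA2 (-0.993) and KRT80, a keratin (-0.991), which stood at -2.08, -2.79 and -1.08 at 48 h. A close fit was common: 8.93% of the 291 genes had r above 0.95 and 25.4% had r below -0.95. The other aquaporins had r between -0.66 (AQP9) and 0.62 (AQP1) with AQP3.

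**Figure D4:**
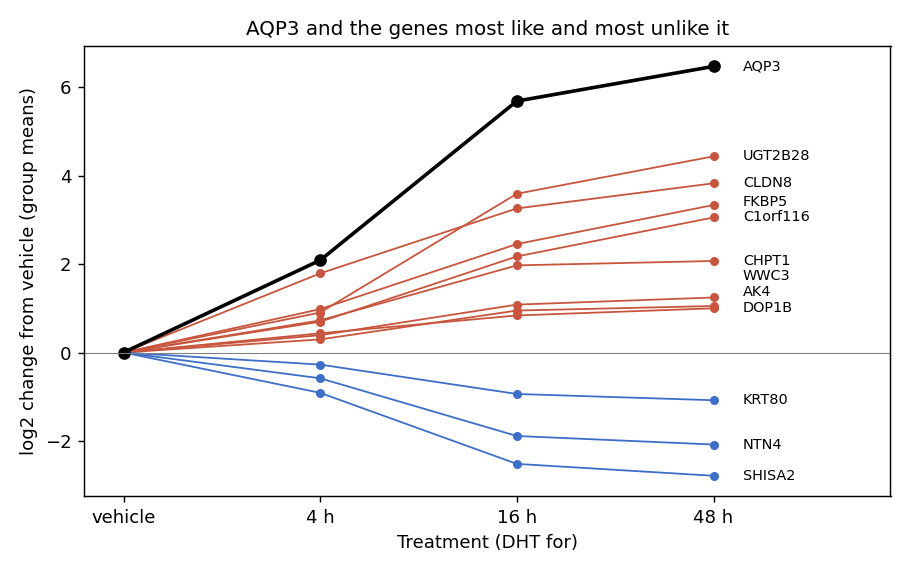
Log2 change from vehicle in group means (y axis) of AQP3 by 39248_at (black), the 8 genes most like it (red) and the 3 most unlike it (blue) at vehicle, 4, 16 and 48 h of DHT (x axis). The red lines end at 4.44 log2 units (UGT2B28) or lower, against 6.47 for this AQP3 probe set; by the others, not drawn, AQP3 ends at 3.86 and 3.65, below UGT2B28.

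Genes that handle what aquaporins carry were counted beside the family, with the shares of all genes given above as the background. Glycerol-3-phosphate and triglyceride genes had 17 of 18 listed members read, of which 0 were called at 4 h and 1 each at 16 h and 48 h. It was GPD2, the mitochondrial glycerol-3-phosphate dehydrogenase, which fell by 0.62 at 16 h (limma adjusted p = 0.013) and by 0.61 at 48 h (adjusted p = 0.011). Its other probe sets gave -1.25 and -0.36 at 16 h (adjusted p = 0.0262 and 0.312) and -0.54 and -0.22 at 48 h (adjusted p = 0.28 and 0.546). The calls of GPD2 were lost without vehicle replicate 1 and without the first replicate of the DHT group in question (adjusted p up to 0.138). Hydrogen peroxide genes had 17 of 18 read, with 0, 1 and 2 called. TXNRD1, a thioredoxin reductase, fell by 0.50 at 16 h (limma adjusted p = 0.0069, lost without vehicle replicate 1 at 0.0536) and by 0.59 at 48 h, while its other, very dim probe set gave 0.21 and 0.07. PRDX4, a peroxiredoxin of the secretory pathway, rose by 0.52 at 48 h (adjusted p = 0.0038). The median changes of both lists lay between -0.04 and 0.04. Of 3 aquaporin-family genes outside the 9 that were read (MIP, AQP2 and AQP6), limma called 0 at each of the 3 times, and 0 had an unadjusted p under 0.05.

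Among 16 of 18 listed genes of osmotic and cell volume control, 0 were called at 4 h, 3 at 16 h, all lower, and 4 at 48 h, with 2 lower and 2 higher. Of all genes, limma called 0.177% at 4 h, 6.85% at 16 h and 9.51% at 48 h. SLC12A2, a sodium, potassium and chloride importer that brings water with it, read 11.23 and 11.18 with vehicle, averaged 11.02 at 4 h, and read 9.85 and 9.76 at 16 h, and 9.70 and 9.77 at 48 h. It fell by 1.40 ± 0.09 at 16 h (limma adjusted p = 4.1e-06) and by 1.47 ± 0.09 at 48 h (adjusted p = 1.6e-06), and a second probe set gave -1.17 and -1.84. STK39, a kinase that activates SLC12A2, fell by 0.98 ± 0.19 at 16 h (limma adjusted p = 0.0099) and by 1.32 at 48 h (adjusted p = 0.0011). The call of STK39 at 16 h was lost without vehicle replicate 2 (adjusted p = 0.0758). The third gene lower at 16 h was SLC38A2, an amino acid importer (-0.41, limma adjusted p = 0.0335), which lies outside the naming rule and was named after its value was seen. At 48 h SGK1, a kinase induced by corticosteroids, rose by 0.85 (limma adjusted p = 0.012) and TRPV4, a cation channel sensitive to swelling, by 0.45 (adjusted p = 0.031). Both were dim, and both lost the call without vehicle replicate 1 (adjusted p up to 0.105 and 0.266). SGK1 also lost it without DHT 48 h replicate 2, and TRPV4 without either 48 h array and with every probe set fitted. The list's median change was 0.04 at 16 h and 0.00 at 48 h.

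**Figure D5:**
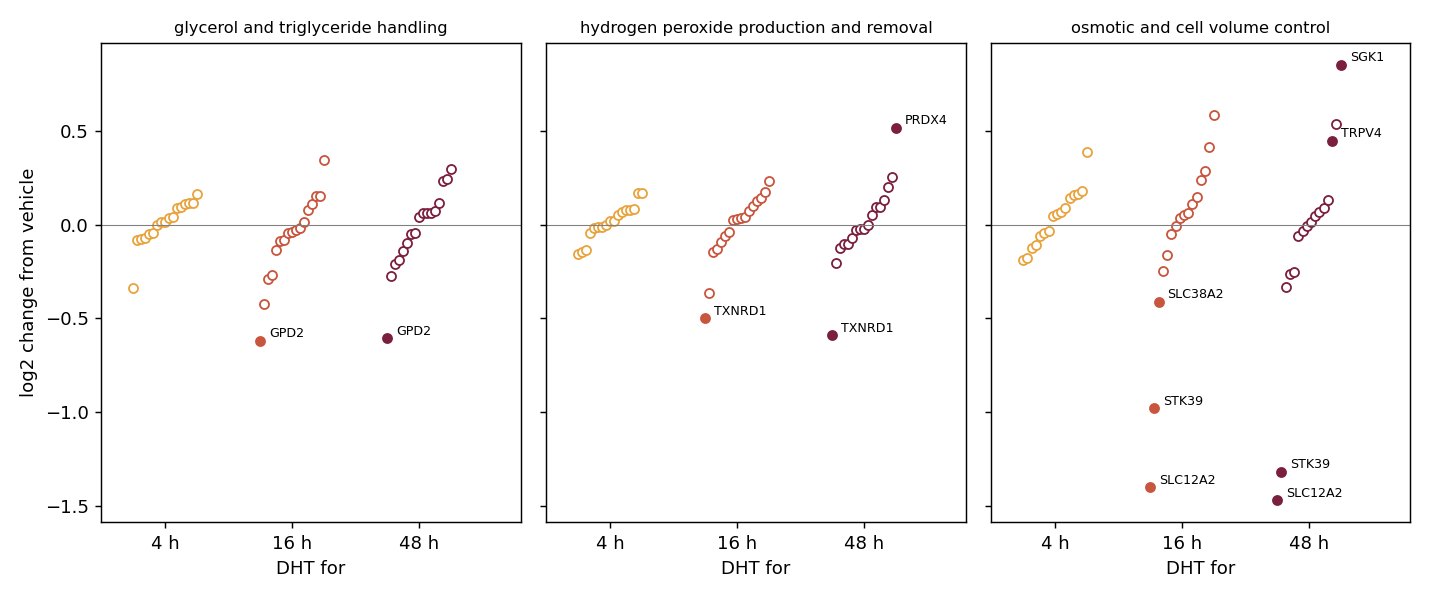
Log2 change from vehicle (y axis) after 4, 16 and 48 h of DHT (x axis) for each gene read of the glycerol, hydrogen peroxide and cell volume lists; each point is 1 gene, filled and named where limma called it. SLC12A2 and STK39 lie lowest, at -1.47 and -1.32 at 48 h.

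The arrays were alike in level, with medians of 7.59 to 7.63 and replicate correlations across genes of 0.995 to 0.997. One array, DHT 16 h replicate 2, lay away from the other 7 on principal component 2 and had the largest 3′ over 5′ difference of the ACTB control probe sets (1.52 log2 units against 0.20 to 0.94 elsewhere). AQP3 read 14.14 on it and 14.04 on its partner, and without it the change at 16 h was 5.64. The luminal markers read (8 of 9 listed) were all brighter than at least 95.8% of genes. At 16 h limma called 3 of these 8 against 6.85% of all genes: KRT19 (0.58) and SPDEF (0.41) higher and ERBB2 (-0.47) lower. At 48 h it called 4 against 9.51%: KRT19 higher (0.68), and GATA3 (-0.85), FOXA1 (-0.72) and ERBB2 (-0.65) lower. The androgen receptor gene was not analysed here. Markers of estrogen receptor activity and of adipocyte, endothelial, erythroid, immune and hepatocyte cells (16 of 18 read) gave 0 calls in 48 limma tests, with 2 unadjusted p-values under 0.05. Of 4 basal and myoepithelial markers read of 5, KRT5 rose by 0.51 at 48 h (limma adjusted p = 0.0067) and ACTA2 fell by 0.73 at 16 h (adjusted p = 0.00080) and 0.53 at 48 h, though 2 dimmer ACTA2 probe sets gave changes of -0.12 to 0.15 without a call. The part of these marker changes in the AQP3 values was not tested. The mean log2 signal of those 4 lay between 7.75 and 7.89 with vehicle, 7.70 and 7.85 at 4 h, 7.64 and 7.66 at 16 h and 7.78 and 7.79 at 48 h.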

How the data were processed

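The deposited table holds log2 signals of 54675 probe sets on 8 Affymetrix arrays, which the authors normalised with RMA (robust multi-array average), per the submitters' processing notes. No version of RMA was given in these sources. The values lay between 3.68 and 15.57, and no further normalisation was applied. Of the probe sets, 62 were controls, 41091 carried 1 gene symbol, 1801 several and 11721 none, by the platform annotation. Each of 19775 genes was read by its brightest probe set of 1 symbol. Limma 3.58.1 (R 4.3.3) fitted 1 mean per group, 4 in all, over the 8 arrays (4 residual and 7.21 prior degrees of freedom). Tests were two-sided, with Benjamini-Hochberg adjustment over all genes in each of 5 comparisons and a threshold of 0.05. The script was tested on simulated data. With 2 arrays a group the smallest exact permutation p is 0.333, so no such test was run. The number of arrays limits the precision.

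The members, gene lists and naming rule were chosen with earlier results of these data known. The rule named all members, up to 4 called genes with the largest change per list, the 8 genes most and 3 least correlated with AQP3, and the 3 RefSeq neighbours on each side. Of the luminal and basal marker lists, the called genes were named. Promoters came from RefSeq (GRCh38.p14). No protein sequence was used here.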

Additional observations from a re-analysis of the deposited data

Results flagged for a closer look

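SLC12A2, STK39 and TXNRD1 are given here because their change under DHT differed between 4 h and 16 h. They were not the only genes named above that limma called between these times. Among the list and marker genes, SLC38A2 (-0.46) and ACTA2 (-0.53) were also called lower, and KRT19 (0.63) and SPDEF (0.52) higher. The genes named for likeness or unlikeness to AQP3 are left out of this account. Several of them differed by more from 4 h to 16 h, such as UGT2B28 (2.69, SE 0.13) and SHISA2 (-1.61, SE 0.13). None of these calls between DHT times was tried under the other settings. With limma, DHT 16 h against DHT 4 h gave -1.21 for SLC12A2 (SE 0.09, adjusted p = 2.1e-05), -0.857 for STK39 (SE 0.19, adjusted p = 0.035) and -0.586 for TXNRD1 (SE 0.09, adjusted p = 0.0052), each lower on both 16 h arrays than on both 4 h arrays. Limma called 0 of the 7 tested aquaporins in that comparison, with 0 at an unadjusted p below 0.05.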

How the results depend on the processing

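AQP3 kept its direction under the 16 other settings tried with its brightest probe set in each of the 5 comparisons. Its changes from vehicle were 2.03 to 2.15 at 4 h, 5.64 to 5.75 at 16 h and 6.36 to 6.59 at 48 h. Several settings could not alter these changes, because they keep the probe set and its group means. They are the fit of every probe set, the filters by kind and signal, the trend and robust prior, the 4 arrays compared and the replicate block. Only rescaling, or leaving out an array of a compared group, could alter them. The probe set read, an alternative added after seeing the data, moved them more. The second probe set gave 0.40, 2.99 and 3.86 at 4, 16 and 48 h and 2.60 from 4 h to 16 h; the third gave 0.50, 2.69, 3.65 and 2.19, and 0.97 from 16 h to 48 h; the mean of all 3 gave 0.99, 3.79, 4.66 and 2.79. The cause was not tested. The 7 other members had 0 calls by limma in all alternatives that read them, with a lowest adjusted p of 0.0951 (AQP4 at 48 h without vehicle replicate 1). Only AQP11 of them is above the median signal, so the filter on dim genes could be run for it alone.

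The counts of all genes called were less steady. At 4 h, 35 genes became 8 with every probe set fitted, 23 outside the _s_at, _x_at and _a_at kinds, 57 above the median signal and 67 with an intensity trend and robust prior. With the 4 arrays of the groups compared, 1354 at 16 h became 798, 604 from 4 h to 16 h became 302 and 164 from 16 h to 48 h became 63. The last was 74 with every probe set fitted. Without 1 array the counts ran from 5 to 60 at 4 h, 517 to 1654 at 16 h, 834 to 2211 at 48 h, 171 to 1107 from 4 h to 16 h and 37 to 644 from 16 h to 48 h. Equal housekeeping signal moved the share of higher among called genes from 60.0% to 72.9% at 4 h. The share moved from 37.2% to 54.1% at 16 h and from 32.9% to 39.1% at 48 h. From 4 h to 16 h it moved from 42.1% to 45.6%, and from 16 h to 48 h from 42.1% to 30.9%. Of the 9 housekeeping genes read, ACTB was itself called lower at 48 h (-0.32, limma adjusted p = 0.038), so this reference was not flat. With the replicate number as a block 25, 1261, 1729, 546 and 135 genes were called. Each group holds each replicate number once, so this block cannot change a difference of group means. The AQP3 changes of 2.09, 5.69, 6.47, 3.60 and 0.78 were thus fixed in advance. The replicate numbers share no known day, and replicate differences correlated between groups at -0.24 to 0.20.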
